A study of Mus musculus with 10 samples.

Results

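The 8 genes described here, Ifit1, Ifit3, Isg15, Irf7, Rsad2, Oasl2, Usp18 and Bst2, are interferon-stimulated genes measured in mouse spinal cord. They were chosen by symbol, through the Entrez Gene identifier of each row, and are 8 of 26301 identifiers in the count tables. All 8 were found and all 8 passed the filter on low counts that left 15540 genes for testing. RNA came from whole spinal cords of C57BL/6 mice, a common inbred strain, with no genotype or treatment named in the labels. The 4 groups sequenced were 3 male and 3 female libraries at 8 weeks of age, and 2 male and 2 female libraries at 4 weeks. Replicates carry a number in the labels, but no label says that they were separate animals, so the p-values reflect the spread among these libraries, which may be technical.

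Interferons are secreted signalling proteins that cells release when they sense viral nucleic acid. Type I interferon binds a receptor of the subunits Ifnar1 and Ifnar2, whose kinases Jak1 and Tyk2 activate a transcription factor complex that includes Stat2 and Irf9 and binds a promoter sequence called the interferon-stimulated response element (ISRE). In the uninfected central nervous system such genes are kept at a low basal level, with microglia and endothelial cells among the cells known to respond.

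The ISRE was looked for in the promoters of the members, since it is the sequence by which these genes are known to be grouped. Promoter windows of 250 bases before to 50 bases after each gene's start were taken from RefSeq (GRCm38.p6, a later build than the mm9 used for the counts), and 7 of the 8 members had one. Usp18 had no entry. The core searched on both strands was GAAANNGAAA, where N is any base. It was present in 5 of 7 members, Ifit1, Ifit3, Isg15, Rsad2 and Bst2, against 3.993% of 27025 genes and 27 of 84 other interferon pathway genes (32.1%). The longer form GAAANNGAAACT was present in 3 of 7 members, against 0.303% of genes. The interferon gamma element TTCNNNGAA was found in Bst2 alone, overlapping its ISRE match, and in 9.554% of all genes.

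Sequences are shown for the member that passed the age test, Rsad2, and for the members with a match to compare with it. They are written 5′ to 3′ along the gene's own strand. Capitals mark matches to the core in the whole windows, and 1 match to the longer form in the shorter stretches. Where the match lies on the opposite strand it reads TTTC first. The whole window is given for Rsad2, at chr12:26456403-26456702 on the minus strand, and for Isg15, at chr4:156200769-156201068 on the minus strand. Shorter stretches with 12 bases on either side of a match to the longer form are given for Ifit1, from chr19:34640639-34640938 on the plus strand, for Ifit3, from chr19:34583279-34583578 on the plus strand, and for Bst2, from chr8:71537423-71537722 on the minus strand.
Rsad2: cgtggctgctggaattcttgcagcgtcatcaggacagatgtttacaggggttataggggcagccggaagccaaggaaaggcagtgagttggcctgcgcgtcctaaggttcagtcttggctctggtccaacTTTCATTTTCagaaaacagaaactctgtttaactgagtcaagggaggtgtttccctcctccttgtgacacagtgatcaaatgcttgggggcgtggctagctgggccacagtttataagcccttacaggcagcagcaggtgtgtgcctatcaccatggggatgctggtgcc
Isg15: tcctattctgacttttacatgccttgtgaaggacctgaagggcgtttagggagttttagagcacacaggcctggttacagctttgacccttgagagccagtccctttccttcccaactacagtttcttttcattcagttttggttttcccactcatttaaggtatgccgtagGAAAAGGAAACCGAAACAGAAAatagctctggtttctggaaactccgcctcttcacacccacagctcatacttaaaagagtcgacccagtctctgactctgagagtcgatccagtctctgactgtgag
Ifit1: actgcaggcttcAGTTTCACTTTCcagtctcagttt
Ifit3: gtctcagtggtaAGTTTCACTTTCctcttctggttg
Bst2: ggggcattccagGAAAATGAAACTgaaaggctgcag
Rsad2 held 1 match, starting 120 bases before the start, and Isg15 held 3 that overlap in 1 run, the first of them 78 bases before it. Ifit1 and Ifit3 held 2 each and Bst2 2 that overlap, the second of which runs on into the lower-case letters of the stretch shown. No match was found in the windows of Irf7 and Oasl2, which says only that these letters are not in those windows. The windows of Ifit1 and Ifit3 carried the same 12 letters along the gene's strand, AGTTTCACTTTC, in which the longer form is read on the opposite strand.

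Total counts per library lay between 8453559 and 11594610. Levels are given in the unit CPM, counts relative to the library total scaled with TMM (a factor per library that aligns the bulk of genes), which at this depth is close to 10 counts per CPM. Replicate pairs differed by more than counting error, with a chi-square over its degrees of freedom of 1.98 to 11.9, the highest for the male 4-week pair. Transcripts of central nervous tissue were abundant, though these markers do not tell spinal cord from brain. The summed CPM of total counts was 6116 to 6401 at 8 weeks and 5384 to 5731 at 4 weeks for 10 neuron genes. The 8 astrocyte genes summed to 7296 to 8657 CPM at 8 weeks and 7197 to 8377 CPM at 4 weeks. For 9 oligodendrocyte genes the sum was 38418 to 44658 CPM at 8 weeks and 59849 to 64776 CPM at 4 weeks, and all 9 were lower at 8 weeks by the edgeR test used below. Transcripts of neighbouring tissue were also present and differed between libraries. The 12 skeletal muscle genes summed to 37.8 to 147 CPM at 8 weeks and 477 to 1928 CPM at 4 weeks, 8 lung genes reached 871 and 100 CPM in male 8-week libraries 2 and 3 and at most 8.32 CPM in any other, and 8 adrenal genes reached 138 and 100 CPM in male 4-week libraries 1 and 2 and at most 17.1 CPM elsewhere. Results that rest on these libraries are given with and without them, as are those with the muscle level as a covariate. The muscle score, the centred mean log2 level of the 12 genes, was -2.28 to -0.588 at 8 weeks and 1.19 to 3.20 at 4 weeks. The ages did not overlap in it, so a fit with this covariate can hardly estimate age apart from muscle level. The cause of calls lost or signs turned in that fit was not tested.

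The question the design poses is how 8-week cords differed from 4-week cords. Of the 8 members 1 passed the test over both sexes, Rsad2, which fell (edgeR quasi-likelihood test in a model with sex as a term, Benjamini-Hochberg adjusted p under 0.05). In the same test 1028 of 15540 genes passed (6.62%), 250 higher at 8 weeks (1.61%) and 778 lower (5.01%), and a count of 1 in 8 is too small to set the members apart from that share. The median log2 fold change was -0.29 over the 8 members and 0.01 over all genes tested, with 3 members positive and 5 negative. Without adjustment, 2 members, Rsad2 and Bst2, had a p under 0.05, as did 3263 of the 15540 genes tested. No member had all 8-week libraries above or all below the 4-week ones, against 2.89% of genes with all 8-week libraries higher and 4.84% with all lower. In these bulk samples, fewer cells of a type and less RNA per cell cannot be told apart.

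**Figure D1:**
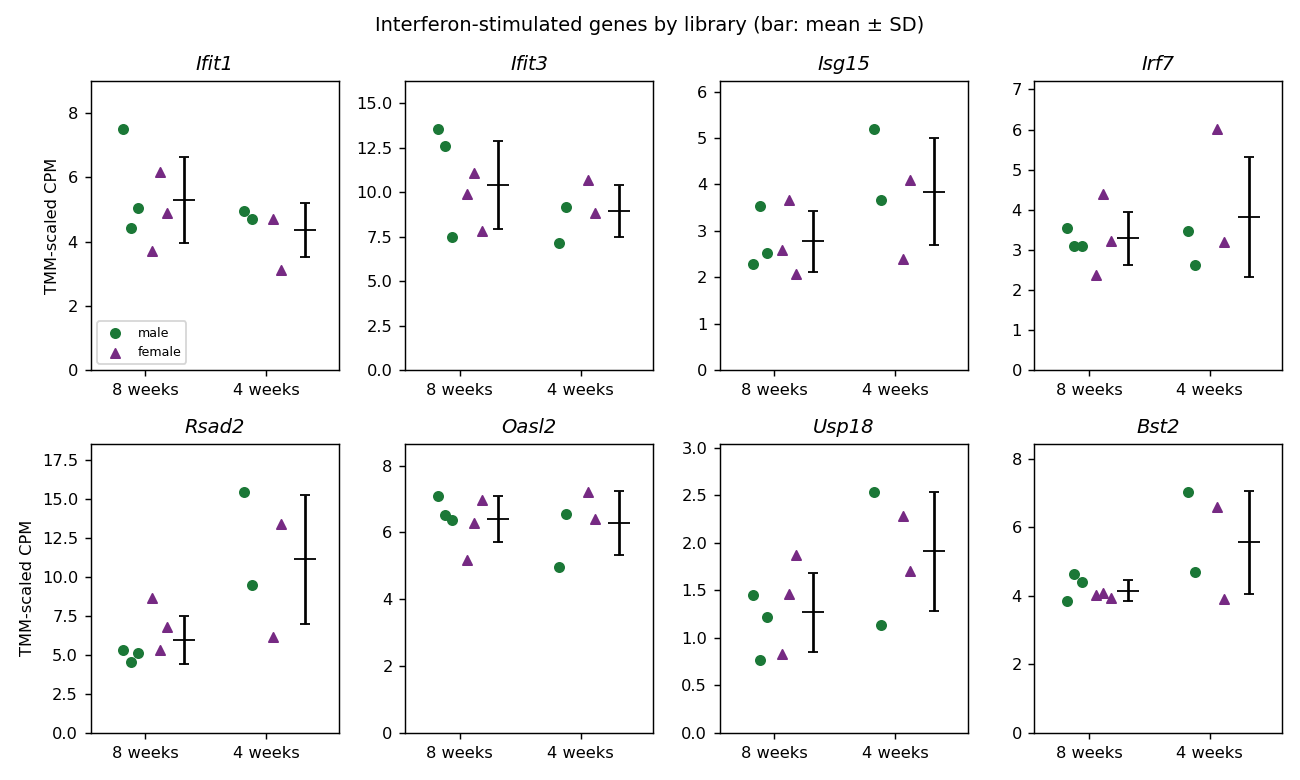
TMM-scaled CPM of each member in every library, 8 weeks left of 4 weeks, with circles for male and triangles for female libraries and a bar for the mean ± SD of each age (n = 6 at 8 weeks and n = 4 at 4 weeks). Rsad2 lies between 4.52 and 8.67 at 8 weeks and between 6.13 and 15.5 at 4 weeks, while Oasl2 covers nearly the same range at both ages.

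Irf7 encodes the transcription factor that amplifies type I interferon production. It had 3.54, 3.09 and 3.09 CPM in male and 2.38, 4.39 and 3.22 CPM in female 8-week libraries, against 3.46 and 2.61 CPM in male and 6.01 and 3.20 CPM in female 4-week libraries. The ages overlapped, and female 4-week library 1 stood above all the others. Irf7 averaged 3.28 ± 0.66 CPM at 8 weeks (SD, n = 6) and 3.82 ± 1.5 CPM at 4 weeks (SD, n = 4). Its log2 fold change was -0.18 (SE 0.23), which did not pass the edgeR test (adjusted p = 0.701), and it was 0.09 without female 4-week library 1. The exons of Irf7 share 45 bases with Phrf1 on the opposite strand, so a few reads may belong to either gene where counting ignored strand.

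The effector genes follow, of which Rsad2 showed the clearest difference. It encodes viperin, an enzyme that makes a chain-terminating nucleotide that stops viral RNA synthesis. Rsad2 had 5.31, 4.52 and 5.14 CPM in male and 8.67, 5.33 and 6.76 CPM in female 8-week libraries, against 15.5 and 9.50 CPM in male and 6.13 and 13.4 CPM in female 4-week libraries. The underlying counts were 41 to 84 at 8 weeks and 51 to 134 at 4 weeks. In 4 of the 6 8-week libraries Rsad2 was below all 4-week values, and female 4-week library 1 lay inside the 8-week range. Rsad2 averaged 5.96 ± 1.52 CPM at 8 weeks (SD, n = 6) and 11.1 ± 4.14 CPM at 4 weeks (SD, n = 4). Its log2 fold change was -0.91 (SE 0.23, 95% interval -1.41 to -0.41), a level at 8 weeks 0.533 times that at 4 weeks, with an edgeR adjusted p of 0.0316. The call was lost when a single library was left out in 7 of 10 cases: the first male (adjusted p = 0.111) or the second female (0.119) at 4 weeks, any male at 8 weeks (0.0696 without library 1, 0.0752 without 2, 0.0682 without 3), or female library 2 (0.0666) or 3 (0.0577) at 8 weeks. It was also lost with both male 4-week libraries left out (log2 fold change -0.52, 0.430), with both lung-bearing male 8-week libraries left out (-0.75, 0.204) or with the muscle level as a covariate (-0.41, 0.759). With limma-voom or with replicate number as a block the Rsad2 call was lost too. All 19 alternatives gave a negative log2 fold change, between -1.15 and -0.41.

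Several marker lists were lower at 8 weeks, as Rsad2 was. The summed CPM of 10 neutrophil and marrow genes was 149, 132 and 225 in male and 174, 193 and 222 in female 8-week libraries, against 640 and 291 in male and 226 and 348 in female 4-week libraries, and all 10 genes fell by the same edgeR test. The 4-week libraries had the same order for this sum as for Rsad2, but the 8-week libraries did not: the sum was highest in male library 3, where Rsad2 was second lowest, and Rsad2 was highest in female library 1, where the sum was 174 CPM. For 10 T cell and plasma cell genes the sum was 3.68 to 8.66 CPM at 8 weeks and 8.28 to 15.6 CPM at 4 weeks, with 4 of the 5 tested genes lower. Erythroid genes summed to 353 to 408 CPM at 8 weeks and 459 to 854 CPM at 4 weeks (3 of 6 tested lower), and bone and cartilage genes to 39.6 to 58.6 CPM at 8 weeks and 54.8 to 104 CPM at 4 weeks (6 of 8 lower). All 7 tested fat genes, all 12 muscle genes and, as given above, all 9 oligodendrocyte genes were lower too. The sum of 12 microglia genes was 469 to 588 CPM at 8 weeks and 528 to 584 CPM at 4 weeks, with 1 of 12 lower, and that of 10 endothelial genes was 118 to 194 CPM at 8 weeks and 116 to 178 CPM at 4 weeks, with 1 of 10 higher. The part of these cells in the Rsad2 result was not tested.

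Cmpk2, an interferon-induced nucleotide kinase gene that lies beside Rsad2 and is often induced with it, was looked at after its values were seen. It lay between 39.9 and 44.7 CPM at 8 weeks and between 40.2 and 42.4 CPM at 4 weeks, with a log2 fold change of 0.04 (SE 0.06, edgeR adjusted p = 0.772). Its coefficient of variation over the 10 libraries was 3.67%, against 46.8% for Rsad2. Counting error alone would give 4.97% for Cmpk2 and 11.4% for Rsad2, which had fewer reads. Cmpk2 is 1 of 47 tested effectors outside the members, of which 17 had a positive and 30 a negative log2 fold change for age.

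Ifit1 encodes a protein that binds viral RNA with an incompletely methylated cap. It had 7.49, 4.41 and 5.05 CPM in male and 3.72, 6.17 and 4.89 CPM in female 8-week libraries, against 4.96 and 4.71 CPM in male and 4.69 and 3.10 CPM in female 4-week libraries. In 3 of the 6 8-week libraries Ifit1 was above all 4-week values, and male 8-week library 1 was highest. Ifit1 averaged 5.29 ± 1.35 CPM at 8 weeks (SD, n = 6) and 4.36 ± 0.85 CPM at 4 weeks (SD, n = 4), and its log2 fold change of 0.29 (SE 0.20) did not pass the edgeR test (adjusted p = 0.440).

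Ifit3 encodes a related protein that works in complexes with other Ifit proteins. It had 13.5, 12.6 and 7.48 CPM in male and 9.91, 11.1 and 7.80 CPM in female 8-week libraries, against 7.15 and 9.15 CPM in male and 10.7 and 8.80 CPM in female 4-week libraries. The ages overlapped, with the 3 highest libraries at 8 weeks. Ifit3 averaged 10.4 ± 2.47 CPM at 8 weeks (SD, n = 6) and 8.95 ± 1.45 CPM at 4 weeks (SD, n = 4), with a log2 fold change of 0.21 (SE 0.18, edgeR adjusted p = 0.539). Its near copy Ifit3b was named after its values were seen. With gaps in the alignment left out, Ifit3b is 98.0% identical over 1697 aligned transcript bases and 99.2% over 260 aligned promoter bases. How reads were shared between Ifit3 and Ifit3b is therefore uncertain. Ifit3b averaged 6.33 ± 0.86 CPM at 8 weeks (SD, n = 6) and 4.72 ± 1.01 CPM at 4 weeks (SD, n = 4), with a log2 fold change of 0.42 that did not pass (SE 0.16, edgeR adjusted p = 0.133).

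Oasl2, a mouse gene of the oligoadenylate synthetase-like family that responds to double-stranded RNA, was the steadiest member. It had 7.08, 6.51 and 6.36 CPM in male and 5.16, 6.28 and 6.97 CPM in female 8-week libraries, against 4.96 and 6.54 CPM in male and 7.21 and 6.40 CPM in female 4-week libraries. The ages covered nearly the same range. Oasl2 averaged 6.39 ± 0.68 CPM at 8 weeks (SD, n = 6) and 6.28 ± 0.95 CPM at 4 weeks (SD, n = 4). Its log2 fold change of 0.03 (SE 0.14, edgeR adjusted p = 0.945) had a 95% interval of -0.27 to 0.32, and its sign changed with the processing.

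Bst2 encodes tetherin, a membrane protein that holds budding virus at the cell surface. It had 3.85, 4.63 and 4.40 CPM in male and 4.03, 4.08 and 3.95 CPM in female 8-week libraries, against 7.03 and 4.71 CPM in male and 6.61 and 3.90 CPM in female 4-week libraries. The 8-week libraries lay close together, whereas the first library of each sex at 4 weeks stood well above the second. Bst2 averaged 4.16 ± 0.30 CPM at 8 weeks (SD, n = 6) and 5.56 ± 1.5 CPM at 4 weeks (SD, n = 4). The log2 fold change was -0.40 (SE 0.17), with an unadjusted p of 0.0347 that did not pass after adjustment over all genes (edgeR adjusted p = 0.196).

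Isg15 encodes a ubiquitin-like protein that interferon-induced enzymes attach to other proteins. It had 2.29, 3.53 and 2.52 CPM in male and 2.58, 3.66 and 2.08 CPM in female 8-week libraries, against 5.19 and 3.66 CPM in male and 2.40 and 4.10 CPM in female 4-week libraries. Among 4-week libraries, female library 1 lay within the 8-week range, male library 2 at its top, and the others above it. Isg15 averaged 2.78 ± 0.66 CPM at 8 weeks (SD, n = 6) and 3.84 ± 1.15 CPM at 4 weeks (SD, n = 4), with a log2 fold change of -0.46 (SE 0.23, edgeR adjusted p = 0.261).

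Usp18 encodes the protease that removes Isg15 from proteins and also dampens signalling at the interferon receptor. It was the member with the fewest reads, 7 to 22 counts a library. Usp18 had 1.46, 0.772 and 1.22 CPM in male and 0.826, 1.46 and 1.87 CPM in female 8-week libraries, against 2.54 and 1.13 CPM in male and 2.28 and 1.70 CPM in female 4-week libraries. The ages overlapped, with 2 of the 8-week values below all 4-week values. It averaged 1.27 ± 0.42 CPM at 8 weeks (SD, n = 6) and 1.91 ± 0.63 CPM at 4 weeks (SD, n = 4), and its log2 fold change of -0.56 (SE 0.30) did not pass the edgeR test (adjusted p = 0.311). Its exons share 124 bases with Gm44148, a noncoding gene on the opposite strand.

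**Figure D2:**
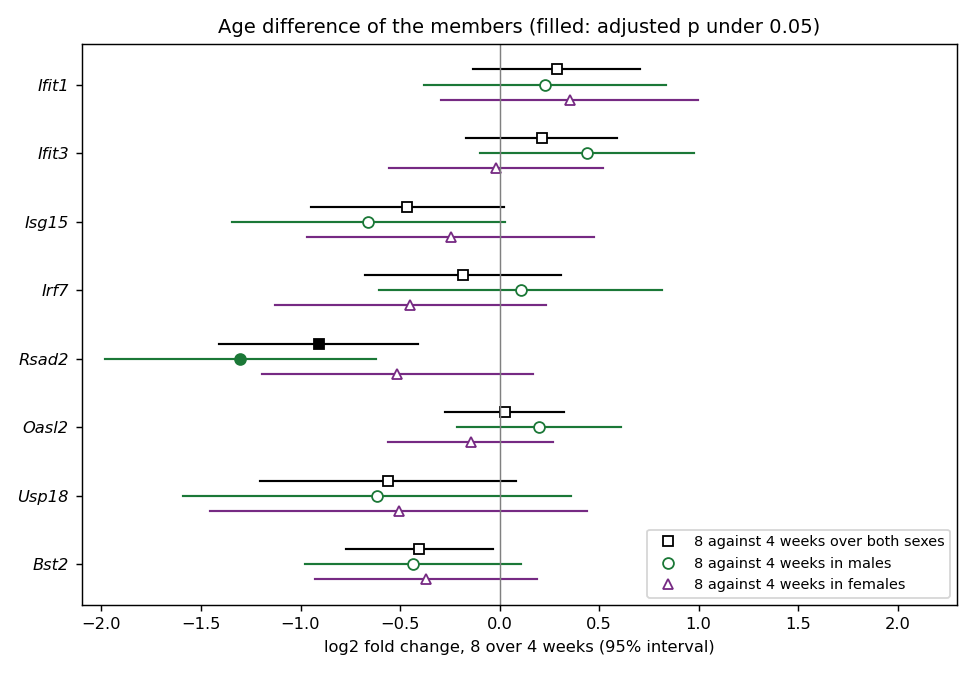
Log2 fold change of 8 over 4 weeks with its 95% interval for each member, over both sexes (squares), in males (circles) and in females (triangles), with filled symbols where the adjusted p was under 0.05. Rsad2 is filled over both sexes (-0.91) and in males (-1.30), and the other members' intervals over both sexes include 0 except that of Bst2, which ends at -0.03.

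Within a sex, the age test again called 1 member in males, Rsad2, and 0 in females. Rsad2 averaged 4.99 ± 0.41 CPM in male 8-week libraries (SD, n = 3) and 12.5 ± 4.21 CPM in male 4-week libraries (SD, n = 2), a log2 fold change of -1.30 (SE 0.31, edgeR adjusted p = 0.0438). In that comparison 501 genes passed (3.22%). In females Rsad2 averaged 6.92 ± 1.68 CPM at 8 weeks (SD, n = 3) and 9.76 ± 5.14 CPM at 4 weeks (SD, n = 2), a log2 fold change of -0.51 (SE 0.31, edgeR adjusted p = 0.557). There 226 genes passed (1.45%), and 0 members had an unadjusted p under 0.05 in the edgeR test, against 1879 of 15540 genes. With 8 members, a count of 0 is too small to set them apart from that share. The difference between the sexes was itself tested as an interaction, male age difference minus female age difference, and Rsad2 had an estimate of -0.79 (SE 0.44, 95% interval -1.76 to 0.18, edgeR adjusted p = 0.970). No member passed that test with edgeR, DESeq2 or limma-voom, 0 had an unadjusted p under 0.05 by edgeR, and 2 of all genes passed (0.0129%). Of the 15540 genes tested, 749 had an unadjusted edgeR p under 0.05 for the interaction, so 0 among 8 members does not set them apart. The male call for Rsad2 was lost on leaving out the first male library at 4 weeks or any of the 6 libraries at 8 weeks, each of which left 0 members called.

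Ifit3 and Irf7 had estimates of opposite sign in the sexes, which the interaction test did not separate. For Ifit3 the log2 fold change was 0.44 (SE 0.25) in males and -0.02 (SE 0.25) in females, with an interaction of 0.46 (SE 0.35, edgeR adjusted p = 0.981). For Irf7 it was 0.11 (SE 0.33) in males and -0.45 (SE 0.31) in females, with an interaction of 0.55 (SE 0.45, edgeR adjusted p = 0.985). Isg15, Usp18 and Bst2 had negative estimates in both sexes, with -0.66 and -0.25 for Isg15, -0.62 and -0.51 for Usp18 and -0.43 and -0.37 for Bst2 in males and females, none of which passed.

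Males were also compared with females over both ages. No member passed the edgeR test, 0 had an unadjusted p under 0.05, and DESeq2 and limma-voom called 0. The log2 fold changes of male over female ran from -0.27 for Irf7 (95% interval -0.75 to 0.22) to 0.25 for Ifit1 (95% interval -0.16 to 0.65). Over all genes 14 passed (0.0901%), and 1143 of 15540 had an unadjusted edgeR p under 0.05, so 0 among 8 members does not set them apart.

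How far libraries differed beyond the counting of reads varied among the members. The chi-square over its degrees of freedom, which is near 1 when reads alone set the spread, was 0.805 for Oasl2 over the 10 libraries, 2.06 for Usp18, 2.51 for Bst2, 2.77 for Irf7, 2.84 for Isg15, 2.92 for Ifit1, 4.52 for Ifit3 and 16.4 for Rsad2. It was above 1 for 7 of 8 members, with age and sex differences included in this spread. The 1.98 to 11.9 of replicate pairs is not a like measure. It is an average within groups over genes with both many and few counts. Among pathway genes with summed counts in the range of the members, values lay on both sides of 1, such as 0.517 for Igtp and 4.97 for Isg20. A value above 1 is therefore not particular to the members. Among 8-week libraries alone it was 3.73 for Rsad2 and 0.201 for Bst2, and among 4-week libraries 13.6 for Rsad2 and 3.88 for Bst2. Ifit1 and Ifit3 had the opposite order, with 3.29 and 5.80 among 8-week libraries and 1.63 and 2.02 among 4-week libraries.

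Compared per length, which allows levels of different genes to be set side by side, the members were ordered by their means over the 10 libraries. In TMM-scaled CPM per kb of annotated exon, Ifit3 had 5.63 ± 1.24, Bst2 5.23 ± 1.28 and Isg15 4.24 ± 1.31. Below them came Ifit1 at 1.85 ± 0.46 and Rsad2 at 1.85 ± 0.87. The lowest were Oasl2 at 0.995 ± 0.118, Irf7 at 0.927 ± 0.274 and Usp18 at 0.547 ± 0.209 (SD, n = 10 throughout). The ranges of every pair of neighbours in that order overlapped. The length is that of all annotated exons of a gene merged, whichever transcript holds them. The annotation used for counting is not stated, so the order may depend on the length taken.

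The 8 members did not move as one. Over the 28 pairs of members, Pearson's r of log2 levels across the 10 libraries had a median of 0.14 and ran from -0.59 to 0.63, with 16 positive, given as a description since the libraries share age, sex and depth. Against the mean of the other members, r was 0.65 for Usp18, 0.55 for Bst2 and 0.45 for Irf7, and -0.001 for Rsad2, -0.17 for Oasl2 and -0.31 for Ifit3. The mean deviation of the members from their own means (log2) was highest in male 4-week library 1, at 0.30, where Isg15, Rsad2, Usp18 and Bst2 each had their highest level, and lowest in female 8-week library 1, at -0.24. Ifit3 and Oasl2 had their lowest level in male 4-week library 1. That library also held the most muscle and the most neutrophil and marrow transcripts, and their part in these levels was not tested.

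**Figure D3:**
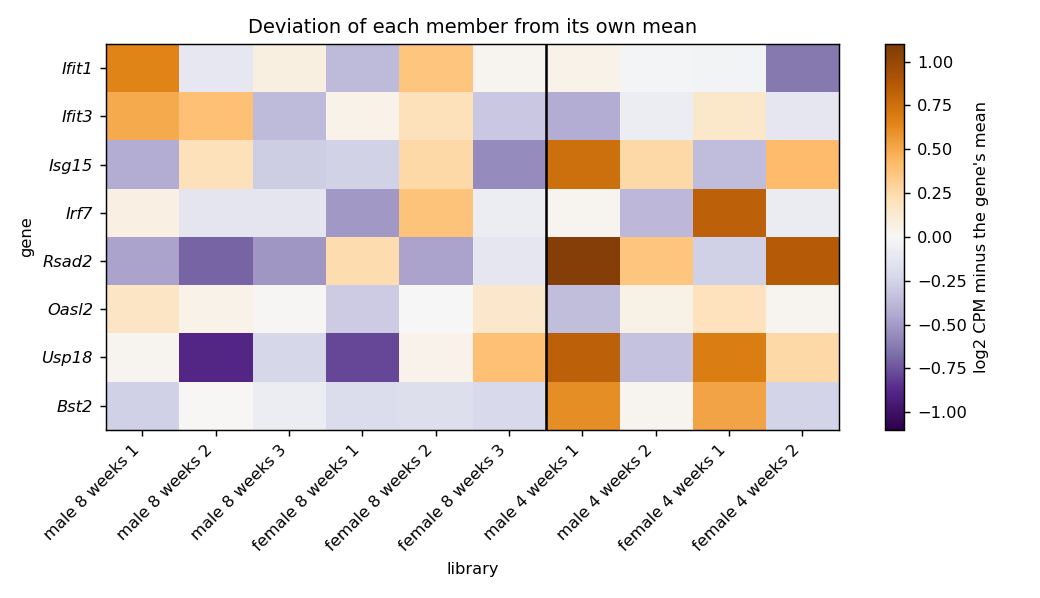
Log2 CPM of each member minus its own mean over the 10 libraries, by gene (rows) and library (columns, 8 weeks left of the line and 4 weeks right of it), from purple below the mean to orange above it. Rsad2 is highest in male 4-week library 1 and female 4-week library 2, and the rows do not share 1 pattern across libraries (median pairwise r 0.14).

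Genes whose levels followed the mean of the members most closely were then listed over all 10 libraries, among 13948 genes of sufficient level. The 10 closest were Blmh (Pearson's r 0.95), Coasy (0.94), Tmem14c, Pon2, Arl5c, Yipf5, Pex5, Mrpl20, S100a13 and Cfl2 (0.92). None of them is in the list of interferon pathway genes. These are the top of a long list over 10 libraries and are given as a description only.

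The rest of the pathway was described from a list of 103 further genes arranged by role, of which 87 passed the filter on low counts (Trim25 and Adar stand in 2 roles each). For age over both sexes 1 rose (Dtx3l), 1 fell (Irf4) and 85 did not pass, against the 1.61% and 5.01% of all genes given above. Their median log2 fold change was -0.09, with 29 positive and 58 negative. Over all genes tested the median was 0.007, with 8022 positive and 7518 negative. Genes of a pathway measured in the same libraries can move together, so the signs are not independent, and they were not tested as a set.

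Transcripts of the interferons themselves were at or near 0. Of 10 ligand genes 7, among them Ifnb1, had 0 counts in all 10 libraries. Ifna4 and Ifng had 1 count each and Ifnz 2 counts in all. A count of 0 over all libraries allows a level of up to 0.0310 CPM, an upper limit of 3 counts for counting error only.

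Receptors, kinases and STAT factors gave no call. Over all genes tested, 3263 of 15540 had an unadjusted edgeR p under 0.05 for age, the share to set beside the count for each role. Among 6 receptor genes 0 passed the edgeR test and 0 had an unadjusted p under 0.05, with log2 fold changes of -0.10 for Ifnar1 (SE 0.06, adjusted p = 0.362) and -0.15 for Ifnar2 (SE 0.09, 0.395). The 6 kinase and STAT genes gave 0 and 0 likewise, with 0.09 for Jak1 (SE 0.05, adjusted p = 0.374 by edgeR) and -0.12 for Stat2 (SE 0.08, 0.402). Irf9, the partner of Stat2, was named after its values were seen, because all 6 of its 8-week libraries (11.1 to 13.3 CPM) lay below the 4-week ones (13.3 to 13.8 CPM). Its log2 fold change was -0.12 (SE 0.08, edgeR adjusted p = 0.455).

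Of 6 other interferon regulatory factors, Irf4 fell and 5 did not pass. Irf4, a transcription factor of B cells, plasma cells and T cells, had 0.728, 0.772 and 0.561 CPM in male and 0.826, 2.09 and 0.728 CPM in female 8-week libraries, against 3.81 and 1.66 CPM in male and 1.80 and 3.60 CPM in female 4-week libraries. In 5 of the 6 8-week libraries it was below all 4-week values. The log2 fold change of Irf4 was -1.52 (SE 0.36, edgeR adjusted p = 0.0208), at 6 to 36 counts a library, beside the summed T cell and plasma cell level of 3.68 to 8.66 CPM at 8 weeks and 8.28 to 15.6 CPM at 4 weeks; the part of those cells was not tested. The call was lost on leaving out the first male (adjusted p = 0.0739) or the second female (0.0844) at 4 weeks or female library 1 (0.0548) or 3 (0.0534) at 8 weeks, or both lung-bearing male 8-week libraries (0.135) or both male 4-week libraries (0.222), and the log2 fold change was 0.66 with the muscle level as a covariate. With replicate number as a block the Irf4 call was lost too. Irf8, a factor of microglia and other myeloid cells, had a log2 fold change of -0.36 (SE 0.19, edgeR adjusted p = 0.309).

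Nucleic acid sensors and their adaptors gave 0 calls among 12 tested, with 2 at an unadjusted edgeR p under 0.05, as had 3263 of the 15540 genes tested. Tlr3, the endosomal sensor of double-stranded RNA, averaged 30.8 ± 2.16 CPM at 8 weeks (SD, n = 6) and 26.3 ± 1.84 CPM at 4 weeks (SD, n = 4), with a log2 fold change of 0.22 (SE 0.08, edgeR adjusted p = 0.109). Cgas, the sensor of cytosolic DNA, had -0.56 (SE 0.23, adjusted p = 0.166).

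Among 47 tested effectors 1 rose and 46 did not pass. Of the 47, 11 had an unadjusted edgeR p under 0.05, as did 3263 of the 15540 genes tested. Dtx3l, a ubiquitin ligase that works with Parp9, had 7.80, 7.61 and 7.29 CPM in male and 7.54, 8.26 and 8.42 CPM in female 8-week libraries, against 5.19 and 5.84 CPM in male and 5.17 and 6.50 CPM in female 4-week libraries. All 6 8-week libraries lay above all 4-week ones. Its log2 fold change was 0.46 (SE 0.11, edgeR adjusted p = 0.0291). The call was lost with DESeq2 (adjusted p = 0.0730) and on leaving out the first male (0.0771) or first female (0.0787) at 4 weeks, the first (0.0563) or second (0.0549) male at 8 weeks, or female library 2 (0.0595) or 3 (0.0655) at 8 weeks. It was also lost with both lung-bearing male 8-week libraries left out (0.108) or both male 4-week libraries left out (0.214). The muscle level as a covariate (0.613) or replicate number as a block lost it too. All 19 alternatives gave a positive log2 fold change for Dtx3l. Mx2, a dynamin-like antiviral GTPase, had -0.51 (SE 0.19, edgeR adjusted p = 0.121). Ifit1bl1, a relative of Ifit1 in the same cluster, was named after its values were seen because its ages did not overlap (2.58 to 3.43 CPM at 8 weeks and 1.83 to 2.52 CPM at 4 weeks), and it did not pass (log2 fold change 0.37, SE 0.18, edgeR adjusted p = 0.252). Dtx3l, Ifit1bl1 and Irf9 were the 3 of 87 tested pathway genes whose ages did not overlap, 2 with all 8-week libraries higher and 1 with all lower, against the 2.89% and 4.84% of all genes given above.

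The enzymes that attach Isg15 gave 0 calls among 4, with 1 at an unadjusted edgeR p under 0.05. That gene, Ube2l6, which encodes the conjugating enzyme for Isg15, had 12.3, 10.04 and 11.5 CPM in male and 11.5, 12.03 and 8.63 CPM in female 8-week libraries, against 19.5 and 14.3 CPM in male and 10.9 and 15.6 CPM in female 4-week libraries. Of the 4-week libraries only female library 1 lay inside the 8-week range, as it did for Rsad2. Its log2 fold change was -0.45 (SE 0.14, edgeR adjusted p = 0.0670), and that of Uba7, which encodes the activating enzyme, was -0.26 (SE 0.18, 0.457). Inhibitors of signalling gave 0 calls among 8, with 1 at an unadjusted edgeR p under 0.05. Adar, which edits self RNA so that it is not sensed, had 0.19 (SE 0.07, edgeR adjusted p = 0.150), and Ptpn2, a phosphatase of the Jak kinases, had -0.18 (SE 0.09, 0.271).

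**Figure D4:**
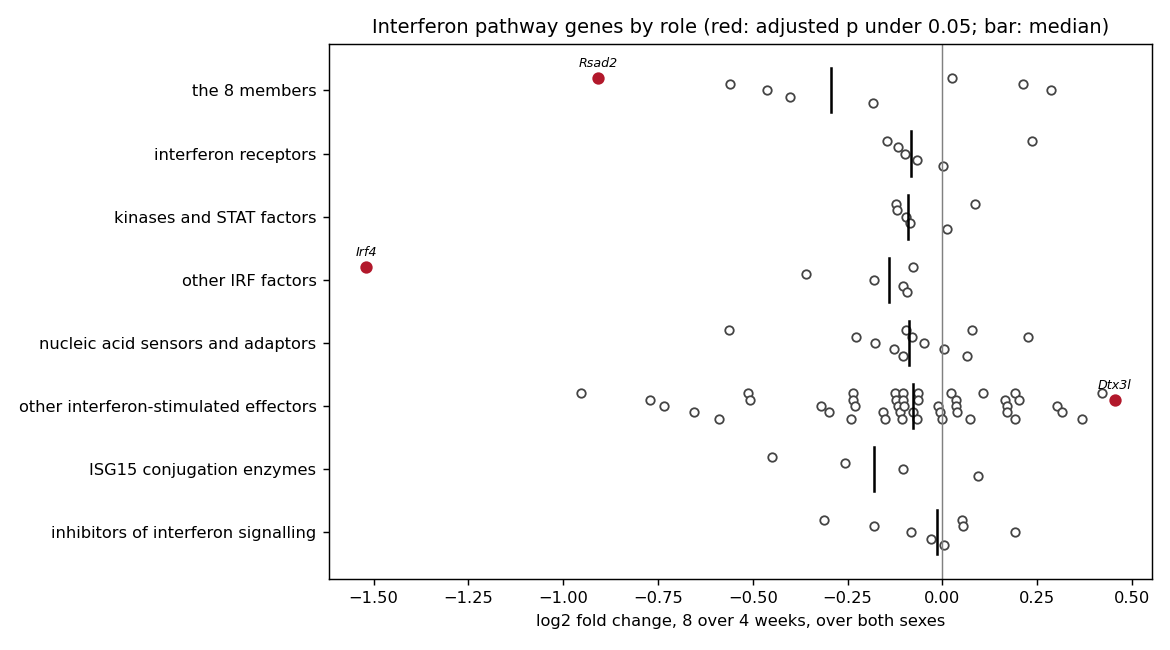
Log2 fold change of 8 over 4 weeks over both sexes for the 8 members and for the tested pathway genes by role, 1 point per gene, with a bar at each row's median and red points where the adjusted p was under 0.05. Rsad2 (-0.91), Irf4 (-1.52) and Dtx3l (0.46) are red, and the other points lie on both sides of 0.

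The pathway genes left out by the filter and not ligands were Zbp1, Mx1, Oas1a, Oasl1, Ccl5 and Phf11d, each with 34 to 52 counts over the 10 libraries. The count of 2 pathway genes called changed with single libraries. It was 5 (2 higher at 8 weeks and 3 lower) with the second male library at 4 weeks left out, 0 with male library 1 at 4 weeks or female library 3 at 8 weeks left out, and 1 with the first or second male or the first or second female at 8 weeks left out.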

How the data were processed

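RNA sequencing of 10 spinal cord libraries was used. The authors deposited raw read counts per Entrez Gene identifier, 1 table per library, not normalized. The aligner TopHat2 2.1.0, the counter featureCounts and the build mm9 are named per the submitters' processing notes. The sources used here do not state the counting options, the strand setting or the annotation. Per the labels' protocols, Trizol RNA and standard Illumina libraries were used. Library totals were 8453559 to 11594610 counts. Of 26301 identifiers 24191 had a symbol in a RefSeq table (GRCm38.p6), which was used for names.

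Counts were tested with edgeR 4.0.16 (R 4.3.3): TMM scaling, filterByExpr (minimum count 10, minimum total 15) leaving 15540 genes, and two-sided quasi-likelihood F tests with Benjamini-Hochberg adjustment over all genes tested at 0.05. An additive model (7 residual degrees of freedom) gave the age comparison over both sexes and the sex comparison over both ages, and a model of the 4 groups (6) gave age within a sex and the interaction, where all libraries lend to the spread. These 5 comparisons were made. SE is the size of the log2 fold change over the root of its F value. Marker sums are CPM of total counts. Pearson's r used log2 CPM; likeness used genes with a mean of at least 1 log2 CPM. Exon lengths, exon overlaps and transcripts came from GENCODE M21 and promoters from RefSeq. Named were all members, pathway genes called in any comparison, the 2 lowest p-values per role and the 10 closest genes. Members and lists were chosen with earlier results of these data known. Alternatives were DESeq2 1.42.0, its size factors in edgeR, limma-voom 3.58.1, no filter, at least 1 CPM in 4 libraries, a replicate block, a skeletal muscle score as covariate, leaving out each library, and leaving out 2 sets of libraries. Whether equal replicate numbers pair libraries was checked: deviations from group means of libraries with the same number correlated between -0.21 and 0.24, and the labels tie the numbers to nothing shared, so they were not treated as pairs. In groups of 2 libraries the deviations mirror each other, so numbers 1 and 2 of the male and female 4-week groups give the same r, 0.21. The check cannot exclude that libraries with the same number shared something.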

Additional observations from a re-analysis of the deposited data

Results flagged for a closer look

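Of 16 sets of values examined (each member at each age), 1 held a library far from the others, where chance gives about 1 in 20. Ifit1 was 3.10 TMM-scaled CPM in female 4-week library 2, from 31 counts, against 4.69 to 4.96 CPM in the other 4-week libraries.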

How the results depend on the processing

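Over 19 alternatives the log2 fold change for age over both sexes kept its sign for Rsad2, Ifit1 and Dtx3l, and Rsad2 passed the test in 7 of them and was the only member to pass in any. Signs turned for Ifit3 with both male 4-week libraries left out (-0.0167), for Irf7 without female 4-week library 1 (0.0913, with -0.317 to 0.0913 over all single libraries left out), for Oasl2 with both male 4-week libraries left out (-0.15) and without male 4-week library 1 (-0.0733), male 8-week library 1 (-0.00808) or female 8-week library 3 (-0.00209; -0.0733 to 0.101 over all), and with the muscle covariate for Isg15 (0.58), Irf7 (0.45), Oasl2 (-0.34), Usp18 (0.11), Bst2 (0.15) and Irf4 (0.66); the cause was not tested. The count of members called, 1 over both sexes and 1 in males, was 0 with the replicate block, limma-voom, the muscle covariate or both lung-bearing male 8-week libraries left out, and over both sexes 0 with both male 4-week libraries left out. Leaving out 1 library gave 0 to 1 in each of these comparisons, and 0 members were called in females, for the interaction and for sex under every alternative run. Replicate numbers are shared by label only, and with them as a block Oasl2 was at -0.00372, Rsad2 at -0.92 (adjusted p = 0.0654), 0 pathway genes were called, and 808 of all genes were called for age and 38 for sex. Pathway genes called for age, 2, were 1 with DESeq2, 0 with the muscle covariate or either set left out, and 0 to 5 without 1 library. All genes called for age over both sexes, 1028, were 46 with the muscle covariate, 474 without the lung-bearing libraries, 393 without male 4-week libraries and 719 to 1473 without 1 library. The muscle score differed between the ages without overlap, so that covariate leaves little of the age difference to estimate. In males, 501 became 62 with the muscle covariate, 15 without the lung-bearing libraries, and 188 to 1199 without 1 library. In females, 226 became 340 with no filter, 16 with the muscle covariate, 118 without the lung-bearing libraries, 393 without male 4-week libraries and 62 to 394 without 1 library. The interaction's 2 became 1 with limma-voom, 0 without the lung-bearing libraries and 1 to 2 without 1 library. For sex, 14 became 60 with no filter, 34 with DESeq2, 24 with the muscle covariate, 9 without male 4-week libraries and 10 to 28 without 1 library. The age comparison in males and the interaction have no value without male 4-week libraries. The ISRE count of 5 members was 3 with the longer form. With CPM of total counts, no library's mean deviation of the members changed sign or moved by as much as the SD of that mean over all 10 libraries. Members held 7 to 134 counts a library. For 7 of 8 the spread between libraries, age and sex included, was larger than counting error. That of replicate pairs was larger too, on average over genes with both many and few counts.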
